A study of Rattus norvegicus with 72 samples.

Results

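Gene expression in the central nucleus of the amygdala (CeA) of rats killed at ZT3 was compared with that of rats killed at ZT5, where ZT counts the hours after lights on. The comparison comprised 7 CeA samples at ZT3 and 14 CeA samples at ZT5, 21 of the 72 samples of the series, and each sample was the bilateral CeA tissue of 1 animal. A gene was compared if each time point had 2 or more samples with a value, as was the case for 143 of the 145 genes assayed. All animals were male Sprague Dawley rats, young when they entered the study, that had not been treated and had never been given alcohol. For some weeks before they were killed they were fed a liquid maltose-dextrin diet without alcohol. Its amounts were limited to the calories that matched alcohol-fed animals had consumed on the day before. Both groups therefore shared the calorie restriction, and no group on free food was compared here. Further CeA samples were taken at ZT9 (12 samples), and the dorsal vagal complex (DVC), a brainstem region, was sampled at ZT3 (7 samples) and ZT5 (17 samples) among other times.

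The CeA is made up mainly of GABAergic neurons and takes part in fear, stress and autonomic responses, partly through its connections with the DVC. Many cells outside the master clock of the suprachiasmatic nucleus also change their transcript levels over the day, through clock proteins, feeding and activity. The genes assayed encode neurotransmitter receptors, G-protein regulators, kinases, phosphatases and the transcription factors that lie at the end of these signaling pathways.

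Transcripts were measured by microfluidic qRT-PCR as CT, the cycle at which the signal of a reaction crosses a threshold, after quantile normalization by the authors. A lower CT means higher expression. Values are given as relative expression (−ΔΔCT), the mean normalized CT of the CeA ZT5 samples minus the normalized CT of a sample, in cycles, unless a CT is named. Folds assume that each cycle doubles the product. A difference is the mean at ZT3 minus the mean at ZT5, so that a positive difference is higher expression at ZT3. Differences are given with their SE from limma, a linear model fitted to all genes together, and "adjusted p" is the limma p after Benjamini-Hochberg adjustment over the 143 genes. Since each sample is a tissue punch, fewer cells of a type and less RNA per cell cannot be told apart.

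The 7 ZT3 samples lacked values for 2 to 7 genes. Among the ZT5 samples, 13 lacked 2 to 8 genes and replicate 1 lacked 78 of 145, so most genes of that sample were not measured. The median CT before normalization was 19.6 ± 0.83 (SD, n = 7) at ZT3 and 20.3 ± 0.87 (SD, n = 14) at ZT5. Without normalization the median gene was therefore 0.61 cycles higher at ZT3, and the differences below are relative to the distribution that normalization gives every sample. All ZT3 animals carried higher numbers than 5 of the 14 ZT5 animals, and each result was also computed without those 5 lower-numbered animals. Gad1 and Slc32a1, markers of GABAergic neurons, had a mean normalized CT of 21.1 at ZT3 (20.8 to 21.4, 5 samples with both) and 21.2 at ZT5 (20.5 to 21.7, 11 samples with both). In the DVC the mean of this pair was close to that, 21.1 at ZT3 and 21.4 at ZT5. Slc6a2, the noradrenaline transporter, had a value in 0 of 7 and 1 of 14 CeA samples but in 7 of 7 and 16 of 17 DVC samples. The few markers of striatal neurons (Rgs9, Scn4b), microglia (Plcg2, Ptgs1), astrocytes (Clu, Gabrg1, Aldh1a1) and cortical neurons (Cckbr) included 0 genes past adjusted p at this comparison, with a lowest adjusted p of 0.648. Rgs9 and Scn4b together had a mean normalized CT of 21.1 (20.5 to 21.9) at CeA ZT3 and 20.97 (19.3 to 21.8) at CeA ZT5. In the DVC their mean CT was lower, 18.99 (18.8 to 19.3) at ZT3 and 19.36 (18.6 to 19.9) at ZT5. Since the DVC lies in the brainstem, the pair was not particular to striatal neurons in these samples. The part of these cell types in the results was not tested.

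Of the 143 genes, 4 (2.8%) differed between ZT3 and ZT5 in the CeA at an adjusted p of at most 0.05. Nr4a2, an orphan nuclear receptor induced by neuronal activity, and Ptpn2, a tyrosine phosphatase that acts on JAK and STAT proteins, were higher at ZT3 (2 genes, 1.4%). Mbd1, a protein that binds methylated DNA, and Elk1, an ETS transcription factor phosphorylated by ERK, were lower at ZT3 (2 genes, 1.4%). At an unadjusted p of at most 0.05 there were 19 genes (13.3%), of which 9 (6.29%) were higher and 10 (6.99%) lower at ZT3. The time points overlapped in every gene tested, so that the share of genes with separate groups was 0.0%. The median difference over all genes was 0.03 cycles, and 74 genes had a higher and 69 a lower mean at ZT3.

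**Figure D1:**
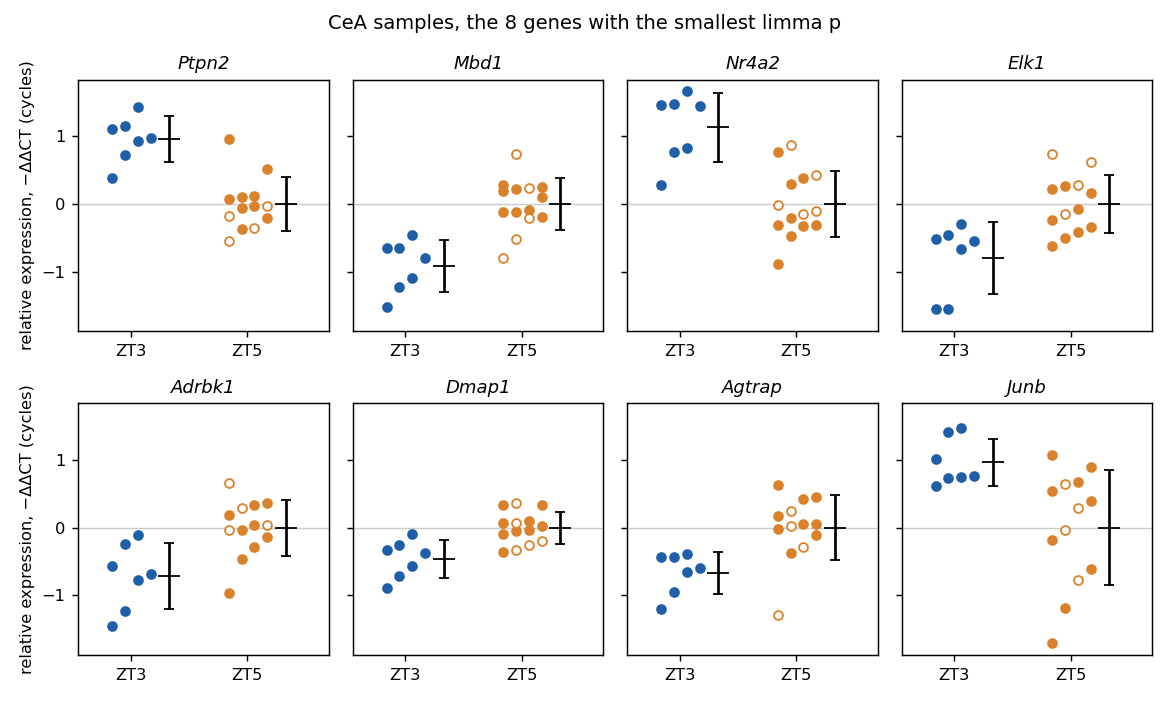
Relative expression (−ΔΔCT, cycles, linear axis) in each CeA sample at ZT3 (blue) and ZT5 (orange) for the 8 genes with the smallest limma p. Each point is 1 animal, open points are the lower-numbered animals, and bars are mean ± SD. All 7 ZT3 points of Nr4a2 and Ptpn2 lie above the ZT5 mean of 0 and all 7 of Mbd1 and Elk1 lie below it.

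The primer pairs that measured these 4 transcripts are shown because the results turn on them. They are the study's designed oligonucleotides, each written 5′ to 3′ in lower case with no base set apart.
Nr4a2 forward: ccacgtcgactccaatcc
Nr4a2 reverse: tagtcagggtttgcctggaa
Elk1 forward: caccagtccaaaccccttag
Elk1 reverse: tcaactcttcagatttctggtttg
Mbd1 forward: tgtgtagaggaggacgagctaa
Mbd1 reverse: tgggtatgatgtggaagcaa
Ptpn2 forward: aggctacaaccgctcagaag
Ptpn2 reverse: catttaggtgtctgtcaatcttgg

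In the RefSeq annotation of the rat assembly GRCr8, Nr4a2 lies on chromosome 3 from 62098739 to 62115926, Elk1 on chromosome X from 3692367 to 3709252, Mbd1 on chromosome 18 from 70145093 to 70159744 and Ptpn2 on chromosome 18 from 63498890 to 63564571.

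The transcription factors of the panel included the largest difference of the comparison. Nr4a2, amplified by the pair shown above, ranged from 0.29 to 1.67 cycles at ZT3 (median 1.44, n = 7) and from −0.89 to 0.87 at ZT5 (median −0.12, n = 14). At ZT3, 4 of 7 samples lay above every ZT5 sample, and the other 3 lay within the upper ZT5 range. The difference of 1.13 ± 0.23 cycles (95% interval 0.67 to 1.60), or 2.19-fold, had a limma adjusted p of 0.00189. An exact two-sided permutation test of the means gave p = 0.000224.

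Elk1 ranged from −1.56 to −0.29 cycles at ZT3 (median −0.55, n = 7) and from −0.62 to 0.74 at ZT5 (median −0.07, n = 13). All 7 ZT3 samples were below the ZT5 mean, and 3 were below every ZT5 sample. The difference of −0.80 ± 0.22 cycles (95% interval −1.25 to −0.35) had a limma adjusted p of 0.0411, and expression was 1.74-fold higher at ZT5. The exact permutation p was 0.00102. This call rested on few samples: it held in 12 of the 21 fits that left out 1 sample, and was lost, at an adjusted p between 0.0507 and 0.12, without ZT3 replicate 2, 6 or 7 or ZT5 replicate 5, 6, 12, 13, 14 or 15. Without the lower-numbered animals the difference was −0.63 cycles and the limma adjusted p 0.112, and at ZT5 the 4 lower-numbered animals with a value had a mean of 0.38 against −0.17 in the 9 higher-numbered.

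Junb, a partner in the AP-1 complex that is also induced by activity, had values from 0.61 to 1.47 at ZT3 (median 0.77, n = 7) and from −1.71 to 1.07 at ZT5 (median 0.29, n = 13). The ZT3 samples lay close together and those at ZT5 were spread, with an SD of 0.35 at ZT3 and 0.85 at ZT5. The difference of 0.96 ± 0.32 cycles did not pass, with a limma adjusted p of 0.105, although it did with each sample centred on its median in place of quantile normalization (1.21 cycles, adjusted p = 0.0132). Of the 5 immediate early and orphan receptor genes tested, 1 passed the adjusted threshold, 3 had a higher and 2 a lower mean at ZT3, and their median difference was 0.17 against 0.03 over all genes. In the higher-numbered animals alone their median was 0.31. Fosl1, another AP-1 member, had a value in 2 of 7 ZT3 and 1 of 14 ZT5 samples and was not tested. Of the 7 genes of the CREB family and other transcription factors, Elk1 alone passed, and their median difference was −0.05, but 0.15 with the samples centred on their medians.

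Mbd1 was among the genes of DNA methylation, chromatin, repair and telomeres, of which 1 of 6 passed. It ranged from −1.52 to −0.46 cycles at ZT3 (median −0.79, n = 7) and from −0.79 to 0.74 at ZT5 (median 0.01, n = 14). All 7 ZT3 samples were below the ZT5 mean and 3 were below every ZT5 sample. The difference was −0.91 ± 0.18 cycles (95% interval −1.29 to −0.54) with a limma adjusted p of 0.00189, and expression was 1.88-fold higher at ZT5. The exact permutation p was 8.6e-05. With each sample centred on its median in place of quantile normalization the difference was −0.50 cycles and no longer passed (limma adjusted p = 0.265).

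Dmap1, a partner of the DNA methyltransferase Dnmt1, had a smaller difference with little spread. Its values ran from −0.89 to −0.10 at ZT3 (median −0.38, n = 7) and from −0.36 to 0.37 at ZT5 (median −0.01, n = 14). At ZT3, 4 of the 7 samples were below every ZT5 sample. The difference of −0.46 ± 0.14 cycles missed the threshold in limma (adjusted p = 0.0665) and passed it by the exact permutation test (adjusted p = 0.024) and in the higher-numbered animals alone (−0.50 cycles, limma adjusted p = 0.0324). Dmap1 passed in 3 of the 21 fits that left out 1 sample, with a limma adjusted p of up to 0.184 in the others. Without ZT5 replicate 1, which had the highest ZT5 value, the difference was −0.43 (limma adjusted p = 0.0866). Terf1, which binds telomere repeats, lay on the other side. Its values were from 0.39 to 1.05 at ZT3 (median 0.60, n = 6) and from −0.68 to 0.70 at ZT5 (median −0.14, n = 10), a difference of 0.69 ± 0.23 with a limma adjusted p of 0.105. With the samples centred on their medians it passed (0.98 cycles, limma adjusted p = 0.027). The median of the 6 genes was −0.06, with 3 higher and 3 lower at ZT3, and −0.22 in the higher-numbered animals alone.

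Ptpn2 was the phosphatase with the largest difference and the smallest limma p of all genes. Its values ran from 0.38 to 1.43 cycles at ZT3 (median 0.98, n = 7) and from −0.55 to 0.96 at ZT5 (median −0.03, n = 13). At ZT3, 4 of 7 samples lay above every ZT5 sample. The difference of 0.96 ± 0.18 cycles (95% interval 0.58 to 1.34), or 1.94-fold, had a limma adjusted p of 0.00189 and an exact permutation p of 0.000103. Of the 7 phosphatases 1 passed, 5 had a higher mean at ZT3, and the median difference was 0.28. With the samples centred on their medians 4 of 7 were higher and the median was 0.13, and in the higher-numbered animals alone it was 0.11. Ptpn2, Mbd1 and Nr4a2 each passed in 21 of the 21 fits that left out 1 sample, with adjusted p of at most 0.00927. With all 33 CeA samples in the fit the limma adjusted p was 0.054 for Ptpn2 and 0.0909 for Elk1, and neither passed.

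**Figure D2:**
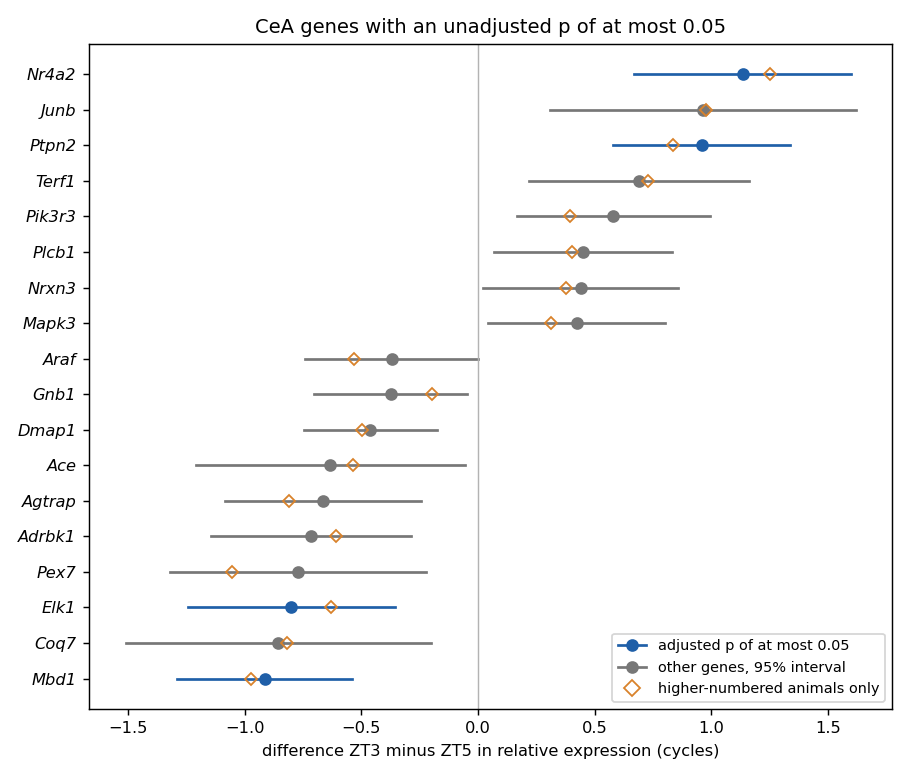
Difference in relative expression between ZT3 and ZT5 in the CeA (cycles, linear axis) for 18 of the genes with an unadjusted limma p of at most 0.05, with 95% intervals. Blue marks the 4 genes past the adjusted threshold, and open diamonds give the difference in the higher-numbered animals alone, which has the same sign for all 18. The diamonds reuse all 7 ZT3 and 9 of the 14 ZT5 samples by which the genes were chosen, so they are not a separate test.

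Of the 4 genes of GRKs and arrestins, 0 passed the adjusted threshold. Adrbk1, the kinase GRK2 that phosphorylates active G-protein-coupled receptors, had the smallest p of them. It ranged from −1.44 to −0.10 at ZT3 (median −0.68, n = 7) and from −0.96 to 0.66 at ZT5 (median 0.04, n = 13). Its difference was −0.72 ± 0.21 cycles with a limma adjusted p of 0.0599, and all 7 ZT3 samples were below the ZT5 mean. It passed in 4 of the 21 fits that left out 1 sample, and the limma adjusted p reached 0.12 in the others. The 4 were those without ZT3 replicate 3 or 6 or ZT5 replicate 10 or 16 (limma adjusted p from 0.0127 to 0.0445). In the higher-numbered animals alone the difference was −0.61 (limma adjusted p = 0.154). With the samples centred on their medians it was −0.56 (limma adjusted p = 0.137). The other 3 kinases and arrestins of this group were within 0.25 cycles of 0, with Arrb2 (beta-arrestin) at −0.02 ± 0.13, and the median of the 4 was −0.06.

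All 5 genes of the angiotensin system had a lower mean at ZT3, by 0.25 to 0.67 cycles, and 0 of them passed. With the samples centred on their medians 4 of 5 were lower, and their median was −0.15 in place of −0.45. Agtrap, which binds the type 1 angiotensin receptor and promotes its internalization, ranged from −1.20 to −0.39 at ZT3 (median −0.60, n = 7) and from −1.29 to 0.63 at ZT5 (median 0.05, n = 13). The lowest value was that of a lower-numbered ZT5 animal, and the other 12 ZT5 samples lay above −0.39. The difference of −0.67 ± 0.20 had a limma adjusted p of 0.0693, and in the higher-numbered animals alone it was −0.81 with an adjusted p of 0.00462. Ace, the enzyme that makes angiotensin II, had a difference of −0.63 ± 0.28 (limma adjusted p = 0.279). It rested partly on ZT3 replicate 4, without which it was −0.36 cycles. Agtr2, the type 2 receptor, had a value in 2 of 7 and 3 of 14 samples. Its difference of −0.45 was also the group median. Both ZT3 values and the ZT5 median were −0.45, so the sign for Agtr2 came from 1 lower-numbered ZT5 animal at 0.90. In the higher-numbered animals alone 4 of the 5 genes were lower.

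Crhr1, the receptor of corticotropin-releasing factor through which stress signals act in the CeA, ranged from −1.24 to 0.36 at ZT3 (median −0.86, n = 7) and from −1.83 to 0.93 at ZT5 (median 0.24, n = 14). Its difference of −0.66 ± 0.36 cycles had a 95% interval of −1.40 to 0.08 and did not pass (limma adjusted p = 0.433). At ZT5 the 5 lower-numbered animals had a mean of −0.64 and the 9 higher-numbered a mean of 0.36. Against the latter alone the difference was −1.02 (limma adjusted p = 0.0642), and with the samples centred on their medians it was −0.32. Of the 3 genes of this system 2 were lower at ZT3, but 1 of 3 was lower with the samples centred on their medians. Oprm1, the mu opioid receptor, had a difference of 0.59 ± 0.37, and Ntrk2, the receptor of BDNF, one of 0.39 ± 0.24. Neither passed (limma adjusted p = 0.516 for each), and Ntrk2 was at 0.16 in the higher-numbered animals alone and at 0.13 with the samples centred on their medians. The 6 other receptors had a median of 0.10, with 3 higher and 3 lower, and of 0.18 without ZT5 replicate 1, with 4 higher and 2 lower.

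The Rgs proteins, which shorten G-protein signals, had 6 genes higher and 3 lower at ZT3, a median difference of 0.09 and 0 genes past the threshold. Rgs4 had the largest SE of the 143 genes, with values from −1.97 to 1.12 at ZT3 (median −1.45, n = 7) and from −2.30 to 3.19 at ZT5 (median −0.06, n = 12). Its difference of −0.95 ± 0.74 cycles had a 95% interval of −2.48 to 0.58. At ZT5 the 3 lower-numbered animals had a mean of 2.47 (1.04 to 3.19) and the 9 higher-numbered animals a mean of −0.82 (−2.30 to 1.12). The ranges overlapped, and lower-numbered replicates 3 and 6 had the same value of 3.19, a normalized CT of 11.381 that Clu had in other samples. Against the higher-numbered ZT5 animals alone the difference was −0.12. Rgs6, with the smallest p of the family, had a difference of 0.32 ± 0.23.

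**Figure D3:**
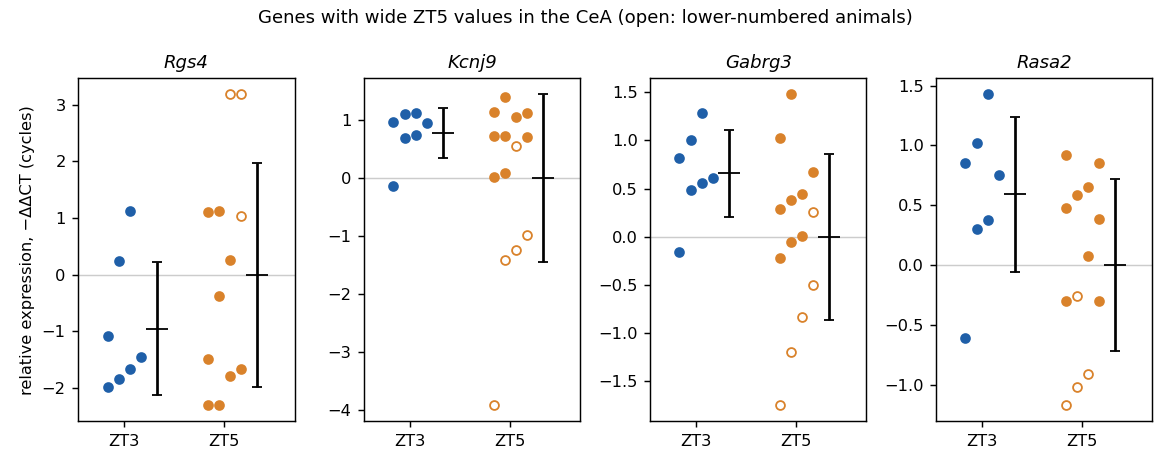
Relative expression (−ΔΔCT, cycles, linear axes that differ between panels) of Rgs4, Kcnj9, Gabrg3 and Rasa2 in each CeA sample, with mean ± SD. Open points are the lower-numbered animals, which at ZT5 average 2.47 for Rgs4 and −1.41 for Kcnj9 against −0.82 and 0.78 in the higher-numbered animals.

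Among the kinases and second-messenger enzymes, Pik3r3, a regulatory subunit of PI3 kinase, had values from 0.08 to 1.20 at ZT3 (median 0.47, n = 7) and from −0.90 to 0.46 at ZT5 (median 0.17, n = 13). At ZT3, 4 of 7 samples were above every ZT5 sample. The difference of 0.58 ± 0.20 did not pass (limma adjusted p = 0.108). The other 4 genes of the PI3 kinase, Akt and mTOR pathway were each within 0.25 cycles of 0, and the median of the 5 was −0.02.

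The 15 genes of the Ras and MAP kinase pathway had 9 higher and 6 lower means at ZT3, a median of 0.10 and 0 genes past the threshold. Mapk3, which encodes the kinase ERK1, was at 0.42 ± 0.18, and Araf, a kinase upstream of it, was at −0.37 ± 0.18 (limma adjusted p = 0.279 and 0.375). Rasa2, which turns Ras off, was at 0.59 ± 0.31, and at ZT5 its 4 lower-numbered animals had a mean of −0.84 against 0.37 in the 9 higher-numbered. Without them the difference of Rasa2 was 0.22.

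Plcb1, a phospholipase C activated by Gq-coupled receptors, was at 0.45 ± 0.18 and Gnb1 at −0.37 ± 0.16 (limma adjusted p = 0.246 and 0.277). Gnb1 passed with the samples centred on their medians (−0.44 cycles, limma adjusted p = 0.0463) and was at −0.20 in the higher-numbered animals alone. Gnb1 is named as in the deposited values, although its NCBI Gene identifier belongs to Gnb4, another G-protein beta subunit, in RefSeq. The 8 genes of phospholipase C, IP3 receptors, cyclase and G protein had a median of 0.04, and of 0.23 with the samples centred on their medians. The 9 protein kinase C genes had a median of −0.02 (−0.14 without ZT5 replicate 1), and the largest difference among them was that of Prkca at 0.40 ± 0.22 (adjusted p = 0.433). The 4 p21-activated and focal adhesion kinases, which act on the actin cytoskeleton, were all higher at ZT3 by 0.06 to 0.13 cycles, but only 1 of the 4 was higher with the samples centred on their medians. Pak1 was at 0.13 ± 0.15 and Pak2 at 0.10 ± 0.13.

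Of the ion channels, 4 of 5 had a higher mean at ZT3, 3 of 5 with the samples centred on their medians, and 0 passed. Their median was 0.38, and 0.24 in the higher-numbered animals alone. Kcnj9, a subunit of G-protein-activated inward rectifiers, was at 0.78 ± 0.52. At ZT5 its mean was −1.41 for the 5 animals with lower numbers and 0.78 for the other 9, and in the higher-numbered animals alone the difference was 0.00. The lowest of these values, −3.93, was that of ZT5 replicate 1, and without that sample the difference was 0.48.

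Of the 11 glutamate receptor and scaffold genes, 8 had a higher mean at ZT3, and 0 passed. In the higher-numbered animals alone 6 of the 11 were higher. Their median was 0.19, and 0.07 without ZT5 replicate 1. Gria2, the AMPA receptor subunit that limits calcium entry, was at 0.29 ± 0.18, and Grik3, a kainate receptor subunit, at 0.44 ± 0.36. Gria2 was at 0.13 in the higher-numbered animals alone and at 0.07 with the samples centred on their medians, and Grik3 was at 0.28 without ZT5 replicate 1. The 9 GABA-A receptor subunits lay on both sides of 0, with 4 higher and 5 lower and a median of −0.04. Gabrg3 was at 0.66 ± 0.33 with a 95% interval of −0.02 to 1.33, and at 0.21 in the higher-numbered animals alone. Gad1, which makes GABA, had values from −0.60 to 0.88 at ZT3 (n = 6) and from −0.53 to 0.81 at ZT5 (n = 14), a difference of 0.28 ± 0.21. The 4 genes of GABA synthesis and transport had a median of 0.06.

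Among synaptic, trafficking and cytoskeletal genes, Nrxn3, a presynaptic adhesion protein, was at 0.44 ± 0.20 (limma adjusted p = 0.321). Mpdz, a scaffold protein, was at 0.45 ± 0.49, and at 0.07 in the higher-numbered animals alone. The median of these 9 genes was −0.12, and −0.04 without ZT5 replicate 1.

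Metabolic genes included a pair with large differences that did not pass. Coq7, an enzyme of ubiquinone synthesis, ranged from −1.85 to 0.14 at ZT3 (median −0.85, n = 7) and from −1.08 to 1.41 at ZT5 (median −0.02, n = 14), a difference of −0.86 ± 0.32 with a limma adjusted p of 0.148. Pex7, which imports proteins into peroxisomes, ranged from −1.30 to 0.04 at ZT3 (median −0.82, n = 7) and from −1.26 to 0.98 at ZT5 (median 0.19, n = 14). Its difference was −0.77 ± 0.27 (limma adjusted p = 0.108), and in the higher-numbered animals alone −1.05 (adjusted p = 0.00501). Of the 7 metabolic genes tested 6 had a lower mean at ZT3, but 4 of 7 did without ZT5 replicate 1, and their median went from −0.24 to −0.11. Of the 5 genes of the secretory pathway and chaperones 4 were lower, with a median of −0.30. Hyou1, a chaperone of the endoplasmic reticulum, was at −0.37 ± 0.21, and Txndc1, a membrane thioredoxin now named Tmx1, at −0.33 ± 0.18 (limma adjusted p = 0.462 and 0.433).

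**Figure D4:**
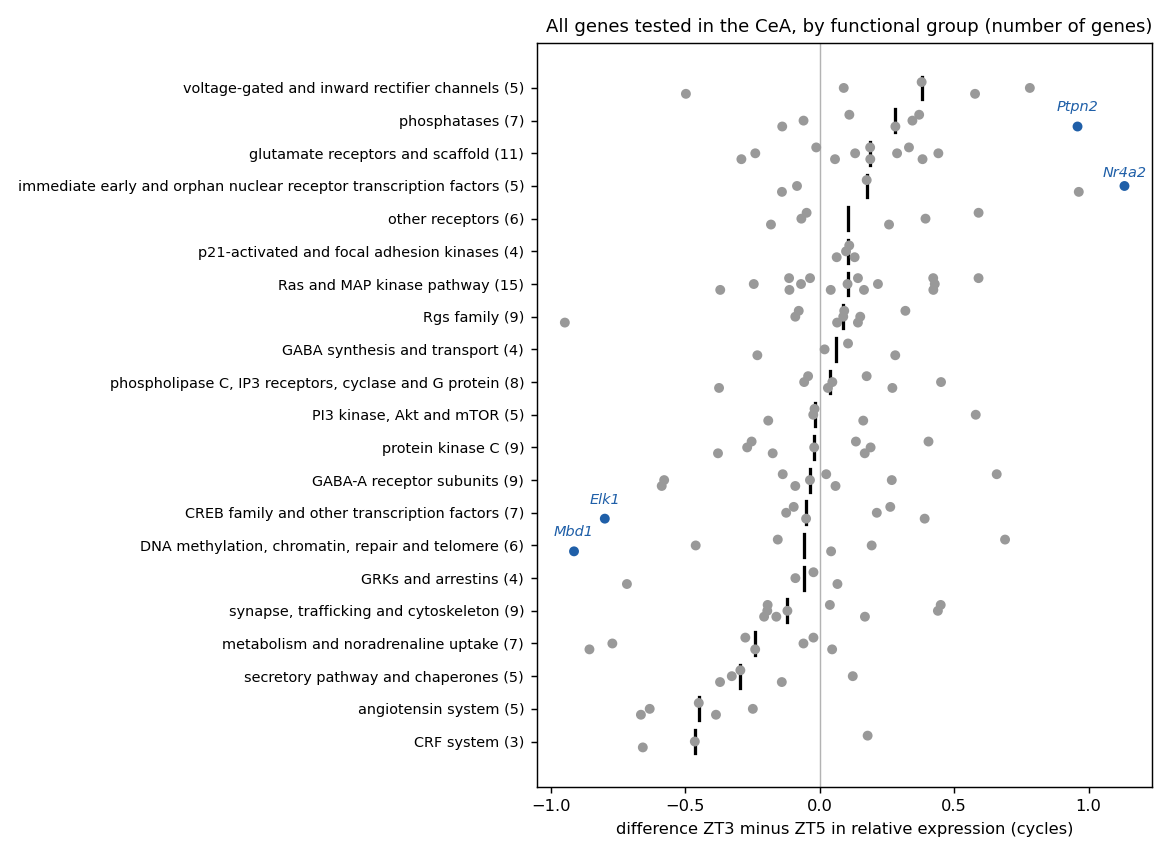
Difference in relative expression between ZT3 and ZT5 in the CeA (cycles, linear axis) of all 143 genes tested, by functional group with its number of genes. Each point is a gene, black ticks are group medians, and the 4 blue points are the genes past the adjusted threshold, which fall in 4 different groups.

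The size of differences that these samples could show varied by gene. The 95% interval lay within 0.5 cycles of 0 on both sides for 30 genes. It reached beyond 1 cycle for 31 genes, and the median SE was 0.22 cycles. Arrb2 (interval −0.29 to 0.24) and Pak2 (−0.18 to 0.37) had the narrowest intervals, followed by Dmap1. A mean difference over 0.25 cycles in size, the threshold used in the study, was met by 59 genes (41.3%), of which 33 were higher and 26 lower at ZT3, and one over 0.5 cycles by 21 genes. A two-sided Fisher's exact test of failed reactions per gene called 0 genes at adjusted p and 0 at unadjusted p of at most 0.05. The smallest p, 0.247, was that of Creb1, with a value in 5 of 7 and 13 of 14 samples, and of Fosl1.

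In the DVC at the same times, relative to the ZT5 mean of that region, the differences of the 4 genes that passed in the CeA had the same sign. Ptpn2 was at 1.09 ± 0.24, Nr4a2 at 0.87 ± 0.22 and Mbd1 at −0.80 ± 0.20 in the DVC, with limma adjusted p of 0.00237, 0.00826 and 0.00826. Elk1 was at −0.46 ± 0.21 in the DVC and did not pass (limma adjusted p = 0.271). Of all 143 genes, 9 passed the limma adjusted p in the DVC, and 25 had an unadjusted p of at most 0.05. How many of the 143 genes had the same sign in both regions was not counted, so the shared sign has no background beside it. Most animals gave both regions, so the regions are not independent animals. The test of the difference between regions, in a limma model with the animal as a random block, called 0 of 143 genes (0.0%) at adjusted p and 6 at unadjusted p of at most 0.05. For the 4 genes this difference, CeA minus DVC, was −0.14 for Ptpn2 (95% interval −0.80 to 0.52), −0.10 for Mbd1 (−0.65 to 0.44), 0.27 for Nr4a2 (−0.35 to 0.89) and −0.36 for Elk1 (−0.95 to 0.24). These intervals leave room for differences between regions of more than 0.5 cycles.

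The genes with the smallest p for a difference between regions were close to 0 in the CeA. Hprt, a purine salvage enzyme often used as a reference gene, was at 0.05 ± 0.17 in the CeA and 1.01 ± 0.19 in the DVC, a difference between regions of −0.95 (95% interval −1.48 to −0.43, limma adjusted p = 0.0886). Clu, a secreted chaperone abundant in astrocytes, was at −0.14 ± 0.24 in the CeA and 0.96 ± 0.27 in the DVC (limma adjusted p of the difference 0.315). Ppp2r1a, a scaffold subunit of protein phosphatase 2A, was at 0.11 ± 0.19 and 0.73 ± 0.19 (limma adjusted p of the difference 0.789). Ace and Araf, also at an unadjusted limma p of at most 0.05 for this difference, were further from 0 in the CeA. Ace was at −0.63 ± 0.28 in the CeA and 0.09 ± 0.23 in the DVC. Araf was at −0.37 ± 0.18 and 0.19 ± 0.18 (limma adjusted p of the difference 0.789 for each).

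**Figure D5:**
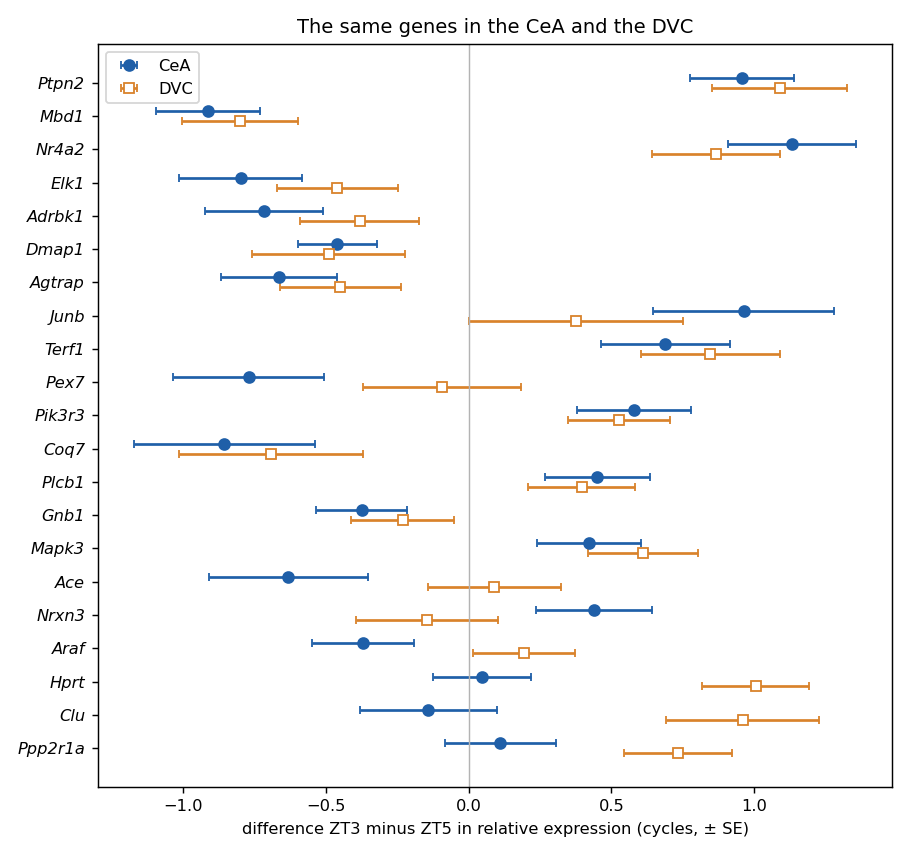
Difference in relative expression between ZT3 and ZT5 (cycles, linear axis, ± SE) in the CeA (circles) and the DVC (squares) for 18 of the genes with an unadjusted limma p of at most 0.05 in the CeA and the 3 with the smallest p for a difference between regions. Ptpn2 and Nr4a2 lie above 0 and Mbd1 below 0 in both regions, and Hprt lies at 0.05 in the CeA and 1.01 in the DVC.

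The CeA samples at ZT9 shared the ZT5 reference with this comparison, so their values are given only side by side. Relative to ZT5, the mean at ZT9 was 1.16 ± 0.84 (SD, n = 11) for Nr4a2, 0.71 ± 0.85 (SD, n = 11) for Ptpn2, −0.61 ± 0.47 (SD, n = 12) for Mbd1 and −0.04 ± 0.67 (SD, n = 11) for Elk1. The ZT3 means of the same genes were 1.13, 0.96, −0.91 and −0.80.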

How the data were processed

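RNA of CeA and DVC tissue was reverse transcribed, pre-amplified and measured by microfluidic qRT-PCR. Per the labels, RNA was extracted with either of a pair of kits, and which sample had which was not given in the sources used here. The authors deposited CT values, which are on a log2 scale of cycles, and the same log2 values after quantile normalization. Normalizing all 72 samples together with limma returned the deposited values to within 4.99e-09 cycles. The authors' table of means and differences was not used, since most of its CeA columns repeat DVC values. Failed reactions stayed missing.

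Samples were grouped by their labels and matched by animal number. Limma 3.58.1 (lmFit, eBayes) in R 4.3.3 compared the 21 samples with no covariate, over genes with at least 2 values a side. The threshold was an adjusted p of 0.05. Exact permutation tests enumerated all splits, up to 116280, and were two-sided. The difference between regions was fitted with duplicateCorrelation (correlation within an animal 0.0895). Nothing states technical replication, and each sample was a separate animal. The number of samples and failed reactions limit the precision, and no counting error can be given.

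Genes were named if they passed an unadjusted p of 0.05, had the largest difference or smallest p of their functional group, the smallest p between regions or the narrowest interval. Of the genes named by this rule, 1 is not reported here. The members, gene lists and tests were chosen with earlier results of these data known. Of the 145 genes, 144 identifiers were in RefSeq (GRCr8), 128 with the same symbol. Primers came from the study's list. Alternatives were other normalizations, samples, covariates, tests and thresholds. Median centring within each assay set used sets of 72 and 73 genes, which were inferred from the order of the genes in the deposited values. Procedures were tested on simulated data. Python 3.11.15, numpy 2.4.6, scipy 1.17.1, pandas 2.3.3 and matplotlib 3.10.9 were used.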

Additional observations from a re-analysis of the deposited data

Results flagged for a closer look

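Among 41 groups of CeA values of the named genes, 4 had a sample farther from the others than the limit of Dixon's test, which chance alone exceeds in about 5% of groups. Of the 41 groups 40 were at ZT3, since nearly all ZT5 groups held more than 10 samples and were not tested. In the ZT3 samples, Clu in replicate 2 was at 0.57 cycles and the other 6 samples lay between −0.28 and −0.24, so that the gap was 0.945 of the whole range. This value, a normalized CT of 11.381, was also exactly the highest value of Clu in both the lower- and the higher-numbered ZT5 animals. Quantile normalization gives every sample the same values in order of rank, and Dixon's test does not allow for such steps. Grik3 in replicate 7 was at −0.54 against 0.41 to 0.78 in the others (gap 0.721 of the range). In replicate 6, Hprt was at −0.75 against 0.04 to 0.53 (gap 0.621), and Kcnj9 was at −0.14 against 0.69 to 1.12 (gap 0.659). None of these genes passed the test between ZT3 and ZT5.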

How the results depend on the processing

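The count of 4 genes was 7 with median centring, 7 with median centring within each assay set, 7 with only the 118 genes measured in every sample and 2 with all 33 CeA samples in the fit. It was 3 to 6 with each sample left out in turn, 4 without ZT5 replicate 1, 6 in the higher-numbered animals, and 5 by the methods' t-test after adjustment (19 at its own threshold). Mbd1 was lost under both centrings, and Ptpn2 (adjusted p = 0.054) and Elk1 (0.0909) in the fit of all 33 samples. Without normalization, 33 genes passed the unadjusted p, all higher at ZT3, and 132 genes exceeded 0.25 cycles. The sign turned for Mbd1 (0.18), Dmap1 (0.19), Agtrap (0.0852), Pex7 (0.087), Gnb1 (0.24), Ace (0.13) and Araf (0.25). The median difference over all genes was then 0.61 cycles. Mbd1 moved by more than that, from −0.91 to 0.18, and was at −0.50 with median centring. A threshold of 0.5 cycles left 21 genes. The difference between regions called 1 gene, Hprt, in the higher-numbered animals. With the replicate number as a block 0 genes passed (22 at unadjusted p) and Araf turned to 0.0875, but this block uses only 5 shared numbers, whose samples did not deviate together (correlations −0.357 to 0.181) and are different animals. The causes of these changes were not tested.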
